A study of Homo sapiens with 6 samples.

Results

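Ribosome footprints of HEK293T cells labelled as treated with an inhibitor of the arginine methyltransferase PRMT1 were compared with the footprints of cells given the vehicle DMSO. The pair was chosen by its labels alone and makes up 2 of the 6 samples of the study, each with 1 library. HEK293T cells derive from human embryonic kidney and express the large T antigen of SV40. The other 4 libraries were a footprint library labelled PRMT4 inhibitor and 1 input library for each of the 3 treatments, DMSO, PRMT1 inhibitor and PRMT4 inhibitor. The labels name no compound, dose, exposure time or clone, and they call every library ribosome-protected RNA, so the nature of the inputs is known only from their titles and fraction labels. With 1 library a side there was no replicate error, no test and no p-value, and each difference below describes these libraries.

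PRMT1 is the main type I arginine methyltransferase of mammalian cells and places asymmetric dimethyl marks on histones and on RNA-binding proteins, many of them in arginine- and glycine-rich stretches. PRMT4, also called CARM1, is an enzyme of the same type with largely other substrates. In ribosome profiling, RNase digestion leaves the stretch of RNA that a ribosome covers, so the footprints of a message follow both its abundance and how densely ribosomes sit on it. RNAs that code for no protein can also be recovered with the monosome fraction, and for those a value in a footprint library is a level in that library and no measure of translation.

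Levels are TPM as deposited, the length-scaled share of each gene in the fixed total of its library, and 3 footprint levels in a row are in the order DMSO, PRMT1 label, PRMT4 label. Sequencing depth cannot be read from TPM, which leaves the counting error unknown. Ratios are log2((TPM + 1)/(TPM + 1)) of the library labelled PRMT1 inhibitor over DMSO, centred on the median of the protein-coding genes. Before centring, that median was -0.18. The pseudocount of 1 TPM understates the ratio where levels are low. Compared were 7478 protein-coding genes and 832 others, those whose mean over the 3 footprint libraries was 5 TPM or more. In a bulk lysate, an RNA held by fewer cells and less of it per cell cannot be told apart.

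The libraries did not line up with their labels. Across the 7478 protein-coding genes, the ratios of the footprints labelled PRMT1 inhibitor correlated with those of the input of the same label at a Pearson r of 0.39 (Spearman rho 0.38), and with those of the input labelled PRMT4 inhibitor at 0.56 (0.54). The ratio of PRMT1 label to PRMT4 label in footprints, which shares no library with the same ratio in input, correlated with it at -0.41 (-0.40). These are correlations across genes, which are not independent, and within a kind of library the ratios share DMSO. The labels were kept, and "the library labelled" a treatment is meant throughout. The inhibited enzymes do not check the labels, because an inhibitor acts on the protein: PRMT1 (ENSG00000126457.21_3) stood at 276 TPM in DMSO footprints and 190.0 TPM in those labelled PRMT1 inhibitor, a ratio of -0.36, and CARM1 (ENSG00000142453.11_3) at 99.9 and 63.4 TPM, a ratio of -0.47.

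The 3 footprint libraries listed 20823, 20485 and 21161 genes above 0 TPM. Protein-coding genes held 74.3%, 62.3% and 70.6% of their TPM. Of the markers listed for HEK293T cells, vimentin (VIM) was at 198, 172 and 208 TPM in the footprints, while the neurofilament gene NEFL reached 7 TPM in DMSO alone and PAX2, LHX1, NEFM, INA and CDH2 were under 5 TPM in each. Of the markers of other cell types, PTPRC, ALB, HBB, MYH7, DCN, CD3E and KRT14 were listed at 0 in the 3 footprint libraries.

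Small nucleolar RNAs stood furthest from DMSO as a class. These RNAs guide the chemical modification of ribosomal RNA, the C/D box class directing methylation of ribose and the H/ACA class pseudouridylation, and most are cut from the introns of other genes. Cajal body RNAs are their relatives that guide the modification of spliceosomal RNA. A set of 5 C/D box RNAs from those with the highest ratios at 20 TPM or more is printed here because they lead this group. The sequences are those of GENCODE release 29 on GRCh38, 5′ to 3′ in DNA letters, and the capitals mark the match to the C box near the 5′ end and to the D box near the 3′ end.
SNORD34: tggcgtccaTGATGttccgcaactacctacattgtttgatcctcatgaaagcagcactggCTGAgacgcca
SNORD32A: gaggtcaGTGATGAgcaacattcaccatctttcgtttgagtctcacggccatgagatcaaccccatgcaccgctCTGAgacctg
SNORD73A: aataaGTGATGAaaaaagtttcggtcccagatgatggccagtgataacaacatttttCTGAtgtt
SNORD126: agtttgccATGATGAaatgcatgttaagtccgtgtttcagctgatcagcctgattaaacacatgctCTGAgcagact
SNORD2: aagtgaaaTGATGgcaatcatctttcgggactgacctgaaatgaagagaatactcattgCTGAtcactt

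On GRCh38, SNORD34 lies at chr19:49490904-49490974 and SNORD32A at chr19:49489965-49490048, both on the plus strand in introns of RPL13A, the gene of a large-subunit ribosomal protein. SNORD73A lies at chr4:151103827-151103891 (plus) in RPS3A, SNORD126 at chr14:20326450-20326526 (minus) in CCNB1IP1 and SNORD2 at chr3:186784796-186784864 (plus) in EIF4A2. None of the 5 overlaps an annotated exon of a protein-coding transcript of its host.

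SNORD2 stood at 157, 2451 and 347 TPM in footprints, a PRMT1-label ratio of 4.14. SNORD126 stood at 23.8, 388 and 62.2 TPM (4.15). In both, the PRMT1-label library was the highest of the footprint libraries and DMSO the lowest. SNORD34 was listed at 0 in DMSO and PRMT4-label footprints and at 820.0 TPM in the PRMT1-label footprints, and SNORD32A at 0, 168.5 and 0 TPM. No fold is given for those, because the depth behind a listed 0 is unknown. SNORD73A stood at 1.49, 77.1 and 12.7 TPM.

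Of the 145 small nucleolar and Cajal body RNAs tested, 126 stood 2-fold or more above DMSO in the PRMT1-label footprints, called higher below, and 87 of these 4-fold or more, while 0 stood 2-fold or more below it. Of all 832 tested genes without a protein product 23.2% were called higher and 3.25% lower by this rule, and these 145 RNAs made up 126 of the 193 called higher. Their median ratio was 2.13, with quartiles of 1.58 and 2.795. The classes ran alike: 64 of 73 C/D box RNAs were called higher (median 2.56), 46 of 52 H/ACA box RNAs (2.03) and 13 of 16 Cajal body RNAs (1.65). A gene could pass the filter on levels through the PRMT1-label library alone, so the 106 RNAs with at least 5 TPM in DMSO are given too, of which 88 were called higher (median 2.08). Summed over the 145, the level was 8309 TPM in DMSO, 38766 TPM under the PRMT1 label and 10572 TPM under the PRMT4 label.

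The abundant H/ACA RNA SNORA3A stood at 695, 4503 and 658 TPM in footprints (ratio 2.87), and at 38.7, 53.6 and 94.5 TPM in the inputs. It overlaps an annotated exon of its host RPL27A, so some of its reads may belong to the host. RPL27A stood at 3023 TPM in DMSO footprints and 3569 TPM in the PRMT1-label footprints. Other RNAs of the 145 also overlap a host exon, among them SNORD43, SNORD95 and SNORD58B. SCARNA8, a Cajal body RNA, stood at 96.0, 502 and 153 TPM in footprints (2.56). At the low end, SNORD86 stood at 160.2, 71.0 and 115 TPM (-0.98), and SNORA12 at 6.80, 6.59 and 17.8 TPM (0.14). The same 145 RNAs had a median of 0.52 in PRMT4-label footprints, where 31 were at least 2-fold higher, and of 0.30 and 0.93 in the inputs labelled PRMT1 and PRMT4 inhibitor.

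**Figure D1:**
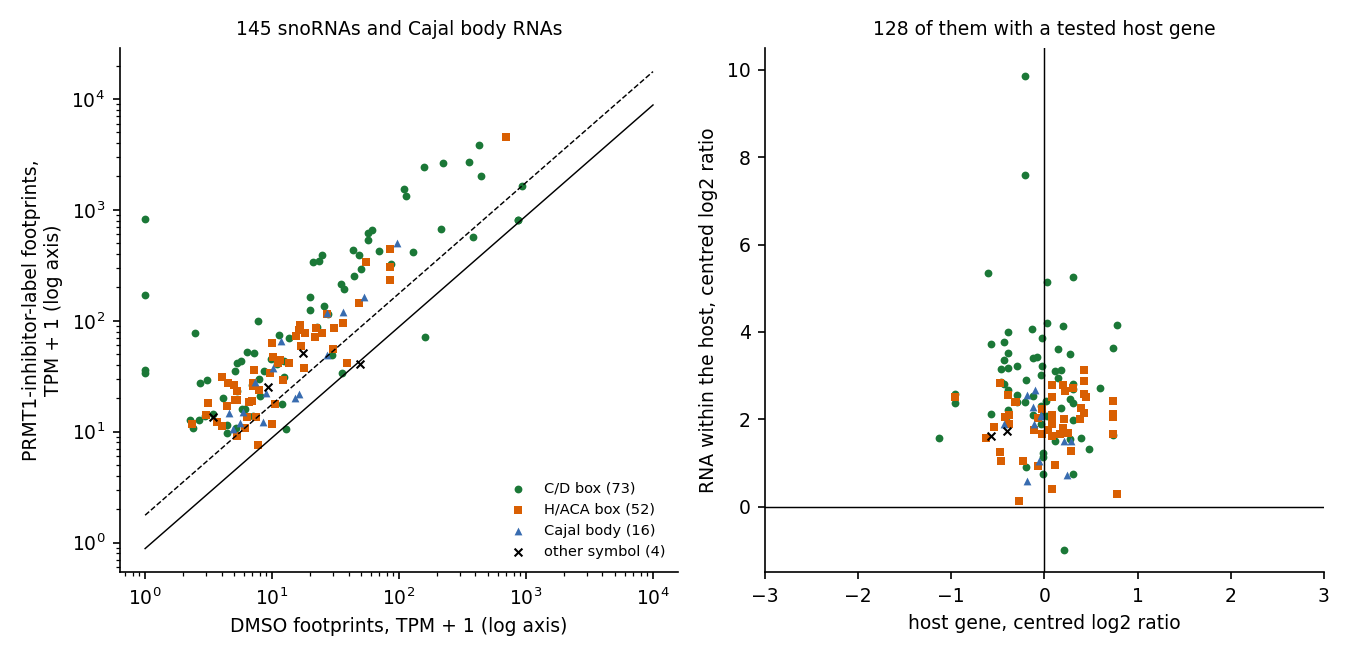
Small nucleolar and Cajal body RNAs. Left, level in DMSO footprints (x) against the PRMT1-label footprints (y), TPM + 1 on log axes, 1 point per RNA; the solid line is the median protein-coding gene and the dashed line 2-fold above it. Right, ratio of the host gene (x) against the ratio of the RNA within it (y), both log2 and centred; 126 of the 145 RNAs lie on or above the dashed line, while host genes lie on both sides of 0. The 4 RNAs at TPM + 1 of 1 on the left are listed at 0 in DMSO, and their height on the right depends on the pseudocount.

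The genes that carry these RNAs had ratios on both sides of 0. Of the 145 RNAs, 138 lay within an annotated gene on the same strand and 128 in one that was tested. The 83 tested host genes had a median ratio of -0.03, with 0 of them called higher and SNHG19 alone called lower. Nucleolin (NCL), the major nucleolar RNA-binding protein, stood at 167 TPM in DMSO footprints and 75.2 TPM in the PRMT1-label footprints (-0.96), while the 3 small RNAs in its introns had ratios from 2.37 to 2.59. RPL4, of the large ribosomal subunit, had a ratio of -0.39 and its 3 small RNAs ratios from 3.18 to 3.99. TAF1D, a subunit of the RNA polymerase I initiation factor, had a ratio of 0.74, with 6 small RNAs from 1.65 to 3.63. The host RNAs listed as coding for no protein were split: of the 25 tested, 13 lay above 0 (median 0.08, which was -0.10 without centring), with SNHG5 at 54.8 and 138 TPM (1.497) and GAS5 at 221 and 420 TPM (1.102) at the top and SNHG19 at 148 and 58.7 TPM (-1.14) at the bottom. GAS5 and SNHG5 are host to none of the 145 tested small RNAs and so are not among the 83 genes.

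Over all 832 tested genes without a protein product, small nucleolar RNAs included, 587 lay above 0, with a median of 0.28. MALAT1, a long RNA retained in nuclear speckles, stood at 51.4 TPM in DMSO footprints, 204 TPM in those of the PRMT1 label (2.15) and 61.2 TPM in those of the PRMT4 label, and in the inputs at 177, 157 and 269 TPM. TUG1, NORAD, OIP5-AS1 and PVT1, the other 4 tested RNAs of the list that holds MALAT1, had ratios of 0.79, 0.52, 0.50 and 0.15. Where in the cell these 4 reside was not measured. Of 52 spliceosomal and other small nuclear RNAs, 17 were called higher and 2 lower (median 0.40). Of 18 mitochondrial transfer RNAs 5 were higher and 1 was lower (0.55). Over all 832 the shares were 23.2% higher and 3.25% lower, with small nucleolar and Cajal body RNAs making up 126 of the 193 higher. The multicopy U1 gene RNU1-4 stood at 2595 and 5086 TPM, a value identical to that of its copy RNU1-3, so the reads of these copies cannot be told apart. The 147 processed pseudogenes had a median of 0.00, with 6 called higher and 5 lower. RPS27P8, a pseudogene of the ribosomal protein RPS27 whose reads may belong to its parent, was at 6.82, 516 and 241 TPM in footprints.

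Among protein-coding genes, 75 were called higher in the PRMT1-label footprints, 1.0% of those tested, and 19 lower, 0.254%. Without centring these counts were 34 and 60, and centred on the ribosomal protein genes they were 59 and 29, so the balance of higher and lower genes depends on the scaling. The quartiles of the ratios were -0.21 and 0.23. Most called genes were low: 64 of the 75 higher genes and 9 of the 19 lower ones had a mean under 20 TPM, and 32 of the 75 were under 5 TPM in DMSO. In PRMT4-label footprints, compared with the same DMSO library, 7 protein-coding genes were higher and 7 lower by the same rule, and 3 of the 75 were among those higher.

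**Figure D2:**
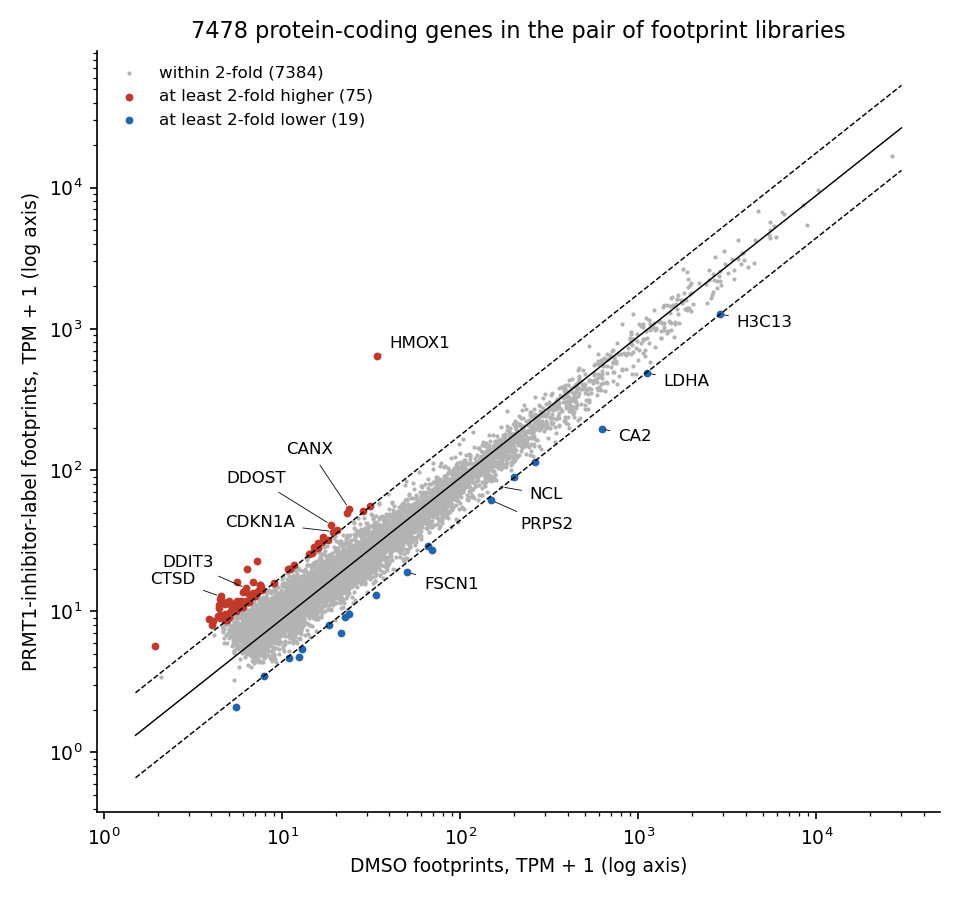
Footprint level of 7478 protein-coding genes in DMSO (x) and in the library labelled PRMT1 inhibitor (y), TPM + 1 on log axes, 1 point per gene. The solid line is the median ratio and the dashed lines 2-fold to either side of it; the 75 higher genes (red) crowd at low levels apart from HMOX1, and the 19 lower genes (blue) include CA2, LDHA and H3C13 at high levels.

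HMOX1 (ENSG00000100292.16_2) stood furthest above DMSO. It encodes heme oxygenase 1, the stress-inducible enzyme that opens the heme ring. Its footprints stood at 33.0 TPM in DMSO, 642 TPM under the PRMT1 label and 93.9 TPM under the PRMT4 label, and its inputs at 7.53, 21.6 and 157 TPM in the same order. The centred footprint ratio was 4.42, 21.4-fold on the TPM + 1 scale, against 1.49 for the PRMT4-label footprints. In the inputs the order of the labels was the other way round, with 1.58 for the PRMT1 label and 4.60 for the PRMT4 label. HMOX1 is a target of NRF2, the transcription factor of the antioxidant response. Of the 21 tested NRF2 targets, 12 lay above 0 and 2 were called higher, where 1.0% of all protein-coding genes were. Their median was 0.03, which was -0.15 without centring and -0.02 centred on ribosomal protein genes. GCLM, the modifier subunit of the enzyme that limits glutathione synthesis, stood at 5.02, 12.7 and 7.28 TPM in the 3 footprint libraries (1.37). The ferritin light chain FTL stood at 102, 166 and 188 TPM (0.87), so its PRMT4-label value was the highest of the 3. Members at the low end included enzymes of NADPH and sugar metabolism, such as PGD (-0.51) and UGDH (-0.36).

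The next highest protein-coding genes with a mean of at least 20 TPM were CANX at 22.7, 52.4 and 30.1 TPM in footprints (1.35), and DDOST at 17.8, 40.0 and 24.7 TPM (1.31). Calnexin (CANX) is a membrane-bound chaperone of glycoproteins in the endoplasmic reticulum, and DDOST a subunit of the oligosaccharyltransferase that attaches their sugar chains. UNKL, a RING and zinc finger protein, stood at 22.03, 48.8 and 21.6 TPM (1.29). CDKN1A, the p21 inhibitor of cyclin-dependent kinases, stood at 18.3, 35.7 and 21.3 TPM (1.11). DYNLT2B, a dynein light chain, stood nearly as high under the PRMT4 label, at 14.8, 29.4 and 27.4 TPM (1.13 and 0.86), and ARL2BP stood at 38.5, 67.0 and 58.5 TPM (0.97 and 0.60). The rule also named CCAR1 (1.03), MDC1 (1.01), CDK5RAP3 (1.01), DCAF8 (0.99), PIR (0.97), HACD3 (0.97), NSD1 (0.96) and the readthrough locus FPGT-TNNI3K (1.06), whose reads are shared with its parent genes.

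**Figure D3:**
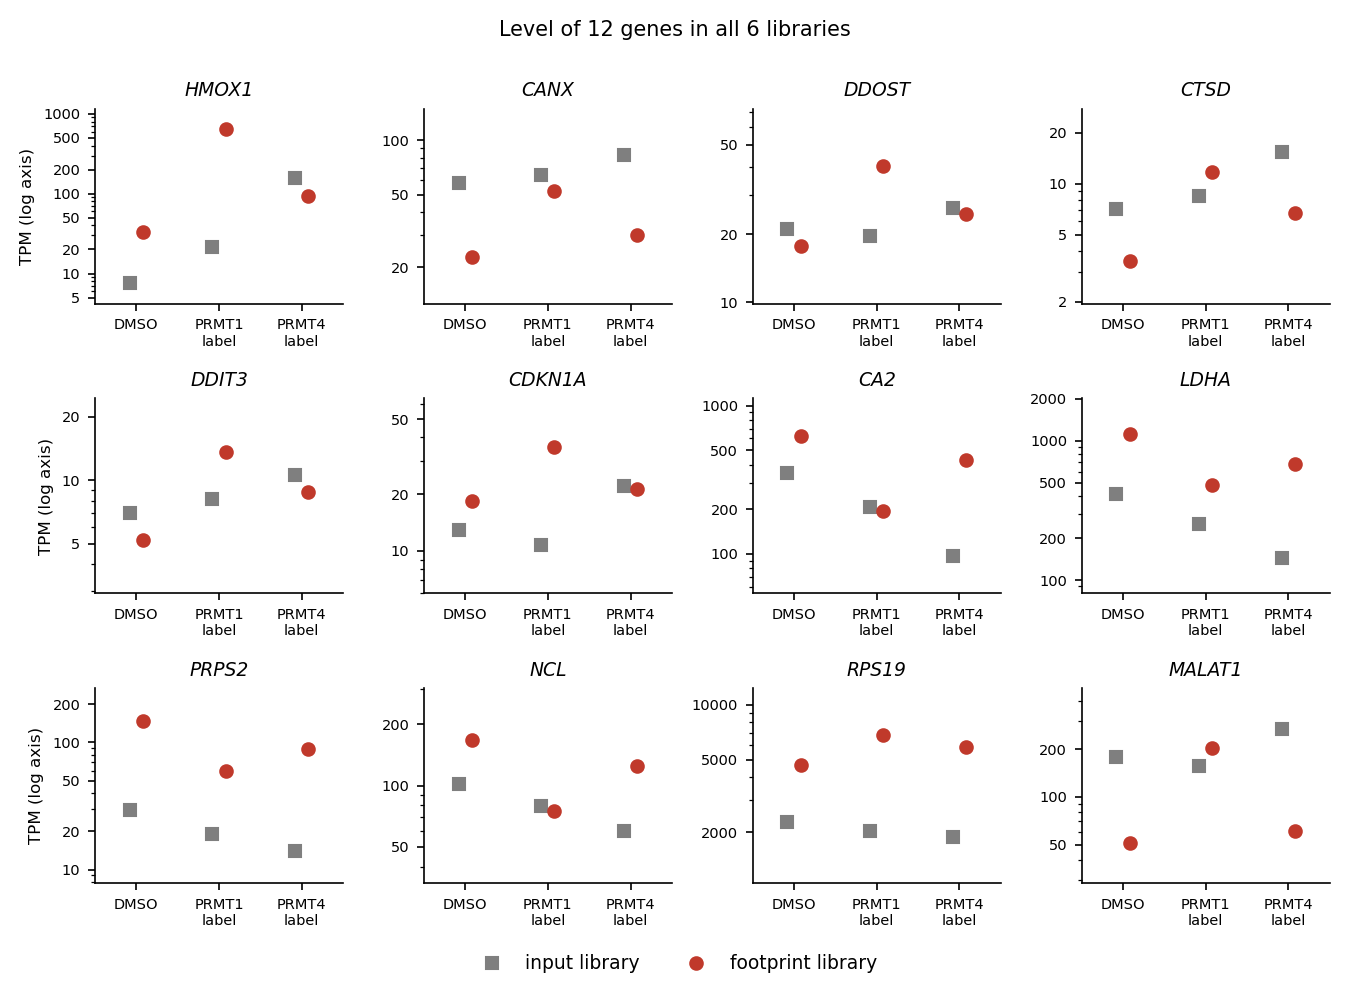
Levels of 12 genes in all 6 libraries, TPM on log axes whose range differs between panels, with input libraries as grey squares and footprint libraries as red circles, 1 library each. For HMOX1, CANX, DDOST, CTSD, DDIT3 and CDKN1A the PRMT1-label circle is the highest circle while the PRMT4-label square is the highest square; for CA2, LDHA, PRPS2 and NCL the PRMT1-label circle is the lowest circle and the PRMT4-label square the lowest square.

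At the other end stood CA2, cytosolic carbonic anhydrase, with footprints at 620.1, 195 and 429 TPM, a ratio of -1.48. Its inputs stood at 350.3, 206 and 97.1 TPM. Its relative CA8 followed at 20.4, 6.02 and 11.9 TPM (-1.42), a gene named after its value was seen. FSCN1, an actin-bundling protein, stood at 49.4, 17.9 and 29.2 TPM (-1.24). AMOT, an angiomotin that binds YAP, stood at 32.7, 12.03 and 22.3 TPM (-1.19), while its relative AMOTL2 stood at 6.69, 13.2 and 10.8 TPM (1.06). The scaffold NHERF2 had a ratio of -1.16, PRPS2, which makes the ribose donor of nucleotide synthesis, one of -1.11 and the chaperone HSPA4 one of -1.02. Apart from AMOTL2, where the order was the reverse, the PRMT1-label library was the lowest of the 3 footprint libraries and DMSO the highest in these genes. The rest of the lowest 15 were H1-3, LDHA, RBBP7, H3C13, NDRG1, UBA1, ADD3, NCL and SYMPK, with ratios from -1.03 to -0.95.

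Above a mean of 200 TPM, HMOX1 was the one protein-coding gene called higher. The highest were CHCHD3, a protein of mitochondrial cristae, at 1769 TPM in DMSO and 2630 TPM under the PRMT1 label (0.75), RPS19 of the small ribosomal subunit at 4685 and 6830.1 TPM (0.72), CENPN (0.69), RPL36A (0.69) and the initiation factor EIF1 at 933 and 1264 TPM (0.62). The lowest, after CA2, were LDHA, H3C13, the histone H2AC25 (-0.93), the creatine kinase CKB at 974 and 477 TPM (-0.85) and ILF2 (-0.84).

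The protein-coding lists with the highest medians were chaperones and glycosylation enzymes of the endoplasmic reticulum. The endoplasmic reticulum is where membrane and secreted proteins enter the pathway, are folded by chaperones and receive their sugars. Of 21 tested chaperones and foldases of this compartment, 18 lay above 0 and 3 were called higher, with a median of 0.63. Over all protein-coding genes, 3738 of 7478 lay above 0 and 1.0% were called higher, with a median of 0. After CANX the called chaperones were the proline isomerase FKBP10 at 6.50, 14.4 and 5.22 TPM in the 3 footprint libraries (1.21) and ERP29 at 4.83, 10.8 and 6.06 TPM (1.197). P4HB, a disulfide isomerase and the most abundant of the list, stood at 48.7, 82.6 and 61.8 TPM (0.93). HSP90B1, the HSP90 of this compartment, stood at 18.6, 31.9 and 18.1 TPM (0.93), and its HSP70, HSPA5, at 8.37, 9.63 and 10.8 TPM (0.36). TXNDC12, SDF2L1 and ERP44 lay below 0, at -0.46, -0.34 and -0.20. The 21 had a median of 0.13 in PRMT4-label footprints and of 0.13 and 0.47 in the inputs labelled PRMT1 and PRMT4 inhibitor. Their median level was 11.5 TPM. Among all genes with a mean from 8.61 to 15.1 TPM, 60.7% lay above 0, with a median of 0.08. Part of the shift of the chaperones may thus go with level.

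Of 20 tested genes of N-glycosylation, 17 lay above 0 and 2 were called higher, DDOST and the catalytic subunit STT3A at 6.35, 12.9 and 4.78 TPM (1.102), with a median of 0.38. The other catalytic subunit, STT3B, had a ratio of -0.01. OSTC stood at 117, 184 and 146 TPM (0.83). Genes of degradation and stress signalling from this compartment lay above 0 in 9 of 13 (median 0.29), with the transmembrane transcription factor ATF6B (1.06) and the lectin OS9 (1.05) called and the cytosolic ATPase VCP at -0.61. Their median level was 11.7 TPM, in the same range as that of the chaperones. Translocon and targeting genes lay above 0 in 22 of 34 (0.22) and genes of COPI and COPII transport vesicles in 24 of 33 (0.18). In either list 0 were called, where 1.0% of all protein-coding genes were called higher and 0.254% lower. The cargo receptor TMED2 stood at 12.8, 22.8 and 15.7 TPM (0.97), and the coat subunit SEC23B at 21.0, 11.1 and 21.5 TPM (-0.68).

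The lysosome list lay above 0 in 19 of 26 (median 0.28). In it 3 enzymes or enzyme activators of the lumen were called, where 1.0% of all protein-coding genes were called higher. The protease CTSD stood at 3.51, 11.7 and 6.74 TPM (1.68), the peptidase TPP1 at 6.46, 14.3 and 7.22 TPM (1.22), and PSAP, the precursor of the saposins, at 6.02, 11.9 and 5.73 TPM (1.06). Split after the values were seen, the members outside the proton pump had a median of 0.62 (12 of 13 above 0), the membrane sector of the pump 0.32 (4 of 5) and its cytosolic sector -0.13 (3 of 8). All 7 tested cell surface receptors lay above 0 (0.26), led by the integrin subunit ITGB1 at 6.23, 12.5 and 9.94 TPM (1.09). Of 94 solute carriers, 63 lay above 0 (0.14, which turned to -0.04 without centring). SLC41A3 (1.12) and SLC7A6 (1.02) were called higher and the iodide carrier SLC5A5 (-1.003) lower, beside 1.0% and 0.254% of all protein-coding genes. The carriers had a median level of 12.2 TPM and the receptors one of 9.57 TPM. Among all genes with a mean from 8.61 to 15.1 TPM, 60.7% lay above 0, with a median of 0.08. Part of the shift of these lists may thus go with level.

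A feature computed over all genes with a coding sequence, members of these lists included, ran the same way. For each gene the highest mean Kyte-Doolittle hydropathy of any 19 residues was computed from a complete coding sequence. It was that of the isoform ranked first as principal in the annotation, and the longest where ranks tied. A stretch of that length and high hydropathy can span a membrane or serve as a signal for entry into the secretory pathway. The 396 genes at 2.4 or more had a median ratio of 0.30, with 80.6% above 0. Of them 5.30% were called higher, beside 1.0% of all protein-coding genes. The 409 genes from 2.0 to 2.4 had a median of 0.19. The 3 bins under 1.6, with 1365, 2217 and 2147 genes, had medians of -0.02, -0.04 and -0.03. Split at 1.6, the medians were 0.13 for 1669 genes and -0.03 for 5729. Of the 71 called higher genes with a coding sequence, 39 were at 1.6 or more.

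Because hydrophobic proteins also had lower footprint levels, with a median of 13.4 TPM against 22.8 TPM, and the ratio itself ran from a median of 0.12 in the lowest of 5 equal classes of level to -0.12 in the highest, the split was repeated within these classes. The genes at 1.6 or more had the higher median in each: 0.23 against 0.07 in the lowest, 0.17 against 0.04, 0.10 against -0.02, 0.00 against -0.07, and -0.04 against -0.13 in the highest. Where such a stretch lay wholly within the first 35 residues the median was 0.25 (363 genes). Where one was found only beyond that, ending after residue 35, it was 0.10 (1306 genes). The 42 hydrophobic genes from the mitochondrial lists and the SLC25 carriers had a median of 0.02, against 0.13 for the other 1627. The genes at 1.6 or more had medians of 0.00 in PRMT4-label footprints, 0.02 in the PRMT1-label input and 0.13 in the PRMT4-label input.

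**Figure D4:**
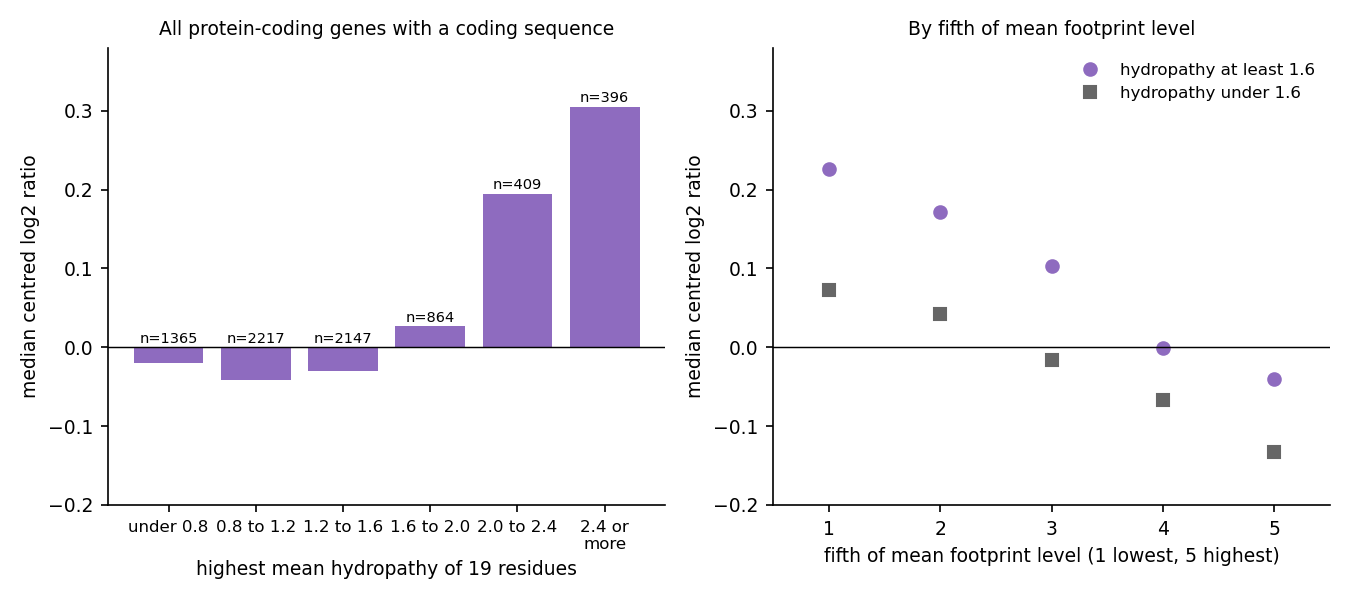
Median centred log2 ratio of the PRMT1-label over DMSO footprints (y) by the highest mean hydropathy of 19 residues in the protein. Left, all 7398 genes with a coding sequence in 6 bins with the number of genes on each bar, from -0.02 under 0.8 to 0.30 at 2.4 or more; right, genes at 1.6 or more (circles) and under 1.6 (squares) within 5 equal classes of mean footprint level, where each circle lies above its square and both are lower in the highest class than in the lowest.

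Promoters of the chaperone genes were searched for the endoplasmic reticulum stress element, the site of the unfolded protein response factors, as the letters CCAAT, any 9 bases and CCACG on either strand. The windows searched were the 250 bases before each gene's start in the RefSeq promoters on GRCh38.p14. The element was found in 22 of 27305 promoters (0.0806%), and in 4 of the 18 matched promoters of the chaperone list. Those 4 are shown with up to 30 bases on each side, on the strand of the gene, with the letters of the element in capitals. CANX lies at chr5:179698748-179698826 (plus), HSP90B1 at chr12:103930186-103930264 (plus), CALR at chr19:12938359-12938432 (plus) and HSPA5 at chr9:125241361-125241439 (minus).
CANX: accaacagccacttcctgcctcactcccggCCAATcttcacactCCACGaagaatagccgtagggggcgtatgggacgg
HSP90B1: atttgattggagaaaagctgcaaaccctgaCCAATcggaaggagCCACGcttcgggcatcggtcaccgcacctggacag
CALR: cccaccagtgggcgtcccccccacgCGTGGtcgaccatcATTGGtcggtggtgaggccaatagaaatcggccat
HSPA5: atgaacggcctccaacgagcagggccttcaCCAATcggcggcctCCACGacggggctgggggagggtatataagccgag

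All 10 tested genes with the element had a median ratio of 0.30, against 0.00 for the other matched genes of the 6218 tested, and 8 of the 10 lay above 0. Beside CANX and HSP90B1 these were CALR, the soluble relative of calnexin, at 14.3, 21.4 and 17.8 TPM in the 3 footprint libraries (0.73), TMEM120A (0.64), HSPA5 (0.36), XBP1, itself a factor of the response, at 71.4, 74.5 and 58.3 TPM (0.24), ZNF17 (0.14), TRIM5 (0.01), SERP1 (-0.16) and EIF2A (-0.17). SERP1 and EIF2A share 1 element between their opposed starts. Of the 10, CANX, HSP90B1, CALR and HSPA5 belong to the chaperone list, so the median of the 10 is not separate from that list. The others ran from 0.64 (TMEM120A) to -0.17 (EIF2A). A shorter form of the element, ATTGG, any base and CCACG, was found in 14 promoters, and its 10 tested genes had a median of -0.04, with 4 above 0. For other motifs searched on both strands the medians lay close together: those with and without the amino acid response core (TGATG, any base, AA) were 0.01 and 0.01, and with and without the hypoxia core ACGTG -0.01 and 0.01. These 2 cores were held by 3.19% and 18.7% of the 27305 promoters. A match is a string of letters and not a measured site.

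The integrated stress response, in which translation is throttled while ATF4 raises genes of amino acid supply, lay above 0 in 16 of 18 tested members with a median of 0.35. DDIT3, which encodes the stress factor CHOP, stood at 5.24, 13.6 and 8.80 TPM in footprints (1.40). It was the one member called, where 1.0% of all protein-coding genes were called higher. SLC3A2, the heavy chain of amino acid exchangers, stood at 57.9, 96.5 and 60.7 TPM (0.91), the asparagine synthetase ASNS at 24.2, 31.6 and 17.8 TPM (0.55) and ATF4 itself at 457, 509 and 366 TPM (0.34). DDIT4, an inhibitor of mTORC1, stood at 55.4, 41.7 and 29.6 TPM (-0.22). The list had medians of -0.18 in PRMT4-label footprints, -0.12 in the PRMT1-label input and 0.45 in the PRMT4-label input. Its median level was 14.3 TPM. Among all genes with a mean from 8.61 to 15.1 TPM, 60.7% lay above 0, with a median of 0.08. Among the aminoacyl-tRNA synthetases, which load amino acids onto transfer RNAs, 11 of 23 lay above 0 (median -0.03, which was 0.03 on values rescaled to the protein-coding total), with CARS1 at 14.7, 25.4 and 14.7 TPM (0.93) and VARS1 at 32.0, 15.5 and 19.9 TPM (-0.83).

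Targets of p53 lay above 0 in 15 of 18 (median 0.23). CDKN1A and PHLDA3 (1.14) were called, where 1.0% of all protein-coding genes were called higher. MDM2, the ubiquitin ligase of p53, stood at 69.0, 110.3 and 63.4 TPM (0.85). KRAB zinc finger repressors lay above 0 in 32 of 41 (0.23), and they did so in 38 of 41 in PRMT4-label footprints (0.35). Their median level was 10.8 TPM. Among all genes with a mean from 8.61 to 15.1 TPM, 60.7% lay above 0 in the PRMT1-label footprints, with a median of 0.08. ZNF780A stood at 5.12, 10.4 and 10.4 TPM (1.07).

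Glycolysis had the lowest median of any list, with 18 of 19 tested genes below 0 and a median of -0.50. LDHA, lactate dehydrogenase A, stood at 1117, 485 and 676 TPM in footprints (-1.02). It was the one member called, where 0.254% of all protein-coding genes were called lower. The pyruvate kinase PKM stood at 1165, 579 and 655 TPM (-0.83), the mutase PGAM1 at 468, 234 and 313 TPM (-0.82) and GAPDH at 1397, 973 and 1244 TPM (-0.34). The one gene above 0 was the lactate carrier SLC16A1 (0.03). The list lay below 0 in the other comparisons with DMSO as well, with medians of -0.36 in PRMT4-label footprints, -0.36 in the PRMT1-label input and -0.13 in the PRMT4-label input. Genes of pentose phosphates and nucleotide synthesis lay below 0 in 27 of 32 (-0.30), with PRPS2 called at 148, 60.1 and 88.8 TPM and CTPS1 at -0.56, while CAD, the first enzyme of pyrimidine synthesis, was at 0.55. The citric acid cycle lay below 0 in 18 of 23 (-0.20) and nuclear genes of oxidative phosphorylation in 51 of 71 (-0.13). The latter list had a median level of 232 TPM. Among all genes of the highest of the 5 level classes, from 61.9 TPM, 32.3% lay above 0, with a median of -0.12. The oxidative phosphorylation list is therefore not set apart from genes of its level. Its median ran from -0.31 to -0.01 under the alternative settings.

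Ribosome biogenesis lay below 0 in 66 of 72 tested genes with a median of -0.39. None of its members was called, where 1.0% of all protein-coding genes were called higher and 0.254% lower. NCL led the list downward, followed by MYBBP1A at 54.6, 28.2 and 37.8 TPM (-0.75) and UTP18 at 30.3, 16.1 and 25.3 TPM (-0.70), and the ribosome assembly ATPase NVL was highest (0.40). The list had medians of -0.09 in PRMT4-label footprints, -0.11 in the PRMT1-label input and -0.29 in the PRMT4-label input. The ribosomal proteins themselves did not follow: 50 of 82 lay above 0, with a median of 0.05 that turned to -0.13 without centring, and values from RPS26 (-0.80) to RPS19 (0.72).

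Many PRMT1 substrates are found among RNA-binding proteins. None of the members of the following RNA processing lists was called. As 1.0% of all protein-coding genes were called higher and 0.254% lower, this count does not set lists of their size apart. Proteins listed for arginine- and glycine-rich motifs were below 0 in 36 of 45 (median -0.29), with SERBP1 at 497, 269 and 416 TPM (-0.71) and the cold-inducible CIRBP at 182, 203 and 221 TPM (0.33). The hnRNP genes, which package nascent transcripts, were below 0 in 22 of 29 (-0.29), from HNRNPL at 282, 141 and 197 TPM (-0.82) to HNRNPF (0.19). Spliceosome core and Sm genes were below 0 in 33 of 38 (-0.20), with EFTUD2, a GTPase of the spliceosome, at -0.71. The SR splicing factors and their kinases were below 0 in 14 of 23 (-0.14), with the kinase CLK2 at 0.59 and the factor SRSF2 at -0.57. Counted from sequence, RGG triplets in the protein did not part the genes: the median was 0.00 for 6509 genes with none, 0.00 for 816 genes with 1 or 2 and -0.03 for 73 genes with 3 or more. Known CARM1 substrates were below 0 in 11 of 17 (-0.26), and the arginine methyltransferases and their partners in 10 of 14 (-0.22), with WDR77, the cofactor of PRMT5, at 125, 60.2 and 102 TPM (-0.86). These lists and those of RNA processing had median levels from 81.7 TPM to 188 TPM. That lies in the highest level class, where 32.3% of all genes lay above 0 with a median of -0.12. Part of their shift may thus go with level.

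Replication-dependent histones were below 0 in 43 of 49 tested genes (median -0.31). H1-3 stood at 262, 113 and 215 TPM (-1.03) and H3C13 at 2876, 1268 and 2313 TPM (-1.001), and H2BC5 was highest (0.26), although histone copies can share reads. The DNA replication list lay below 0 in 34 of 50 genes (-0.18), and UHRF1, which maintains DNA methylation, stood at 22.8, 8.56 and 19.6 TPM (-1.13). Tubulin genes were below 0 in 16 of 20 (-0.35) and actin-binding genes in 38 of 46 (-0.22). FSCN1 was called, where 0.254% of all protein-coding genes were called lower. Cytosolic chaperones were below 0 in 25 of 31 (-0.23), the opposite side from those of the endoplasmic reticulum, with HSP90AB1 at 403, 211 and 254 TPM (-0.75) and DNAJB4 at 10.7, 18.7 and 14.7 TPM (0.93). Median levels were 169 TPM for the cytosolic chaperones and 11.5 TPM for those of the endoplasmic reticulum. They were 439 TPM for the histones, 81.5 TPM for actin-binding genes and 66.5 TPM for tubulins. Over all genes of the highest level class the median was -0.12, with 32.3% above 0. MYC stood at 456, 225 and 386.4 TPM (-0.84), and of the 13 tested genes of the list of immediate early genes and MYC, 6 lay above 0.

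**Figure D5:**
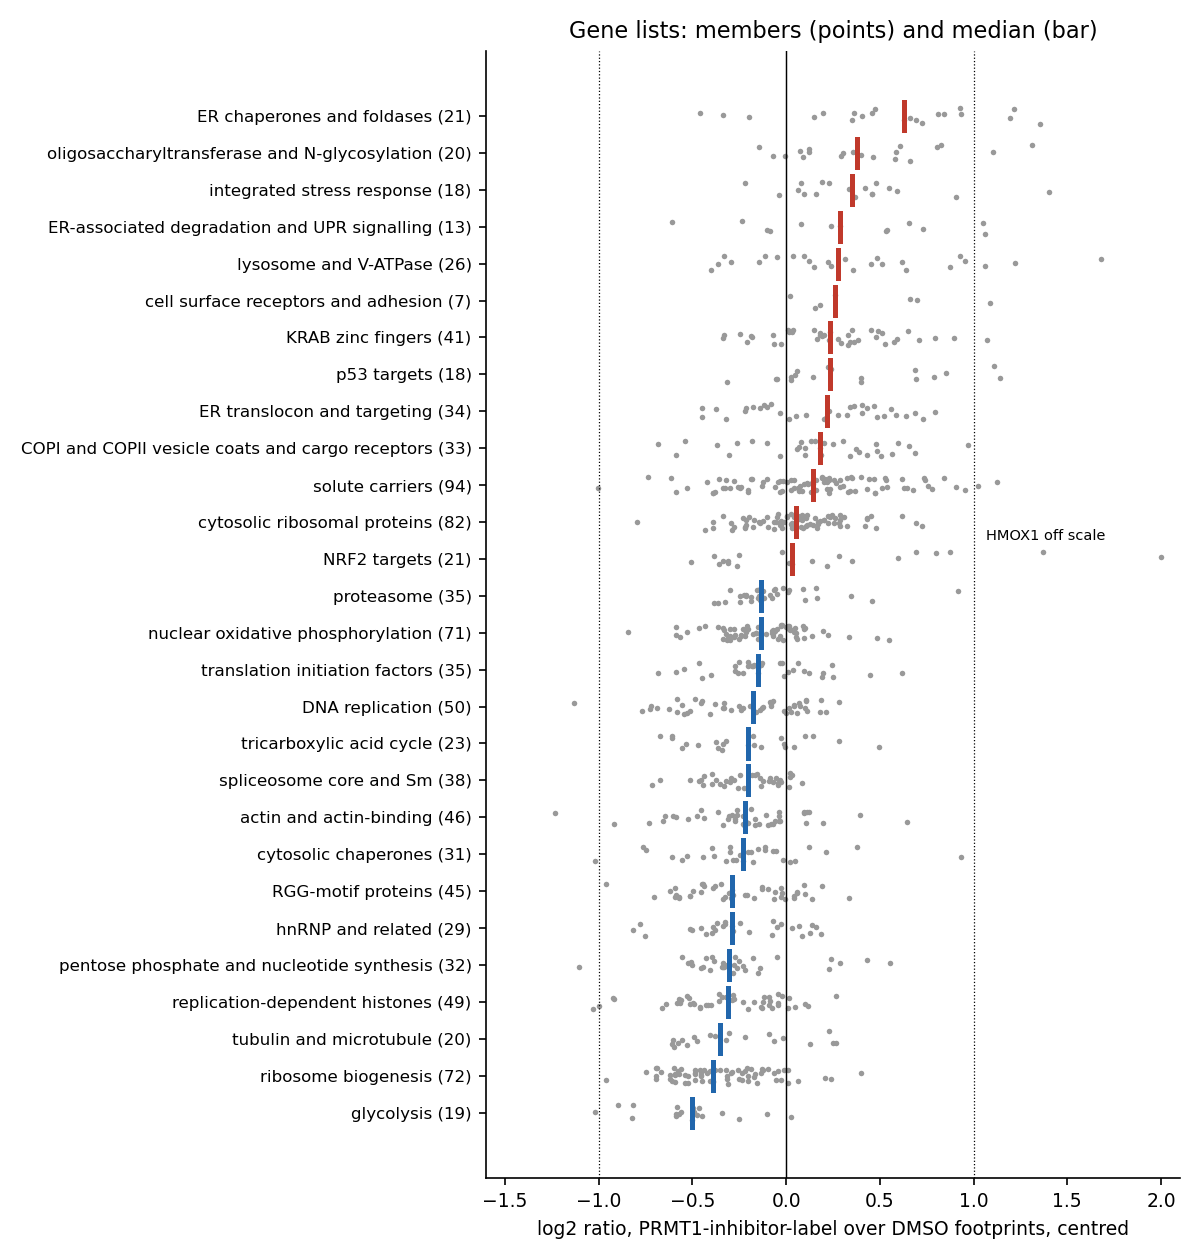
Centred log2 ratio of PRMT1-label over DMSO footprints (x) for the tested members of 28 gene lists, 1 grey point per gene, with the median as a bar (red above 0, blue below) and the number of tested members in brackets. Dotted lines mark 2-fold. Chaperones of the endoplasmic reticulum, N-glycosylation and the integrated stress response lie at the top, at 0.63, 0.38 and 0.35. Glycolysis and ribosome biogenesis lie at the bottom, at -0.50 and -0.39. HMOX1, at 4.42, is drawn at the right edge.

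The libraries labelled PRMT1 and PRMT4 inhibitor can be set against each other without DMSO. The ratio of the PRMT1-label over the PRMT4-label footprints had medians of 0.42 for the chaperones of the endoplasmic reticulum, 0.31 for N-glycosylation, 0.52 for the integrated stress response, -0.27 for ribosome biogenesis, -0.18 for glycolysis and -0.17 for the list of arginine- and glycine-rich motifs. It was 2.93 for HMOX1, 1.54 for CDK5RAP3 and 1.34 for DCAF8, the highest protein-coding genes of at least 20 TPM beside the readthrough locus ARPC4-TTLL3 (1.95), and -1.16 for the testis histone H1-6, -1.14 for SERF1A, -0.96 for CA2 and -0.86 for HSPA4, the lowest. Mitochondrially encoded messages rest on little signal, 0.0105%, 0.0109% and 0.0059% of footprint TPM. Of the 13, 5 were tested, with a median of 0.17 over DMSO (-0.01 without centring) and of 1.16 over the PRMT4-label footprints, and MT-CO2 stood at 10.1, 14.2 and 5.59 TPM.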

How the data were processed

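The 6 libraries were read from 1 table of TPM that the authors deposited, with 1 column per library. RSEM 1.2.22, STAR 2.4.2a, Bowtie 1.1.2, cutadapt 1.18 and the build GRCh37.p13 are named, in no order, by the submitters' notes on processing. RNase I digestion, monosomes from a sucrose gradient and a small RNA library are described per the labels' protocols. The table lists 60461 identifiers, of which 41 copies on the Y pseudoautosomal region were dropped. Gene types, symbols, coding sequences and small RNA sequences came from GENCODE 29 and promoters from RefSeq, both on GRCh38, matched by identifier or symbol, and 56157 identifiers had a gene type. Coordinates are therefore those of the annotation and not of the authors' build.

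Ratios were computed with Python 3.11.15, numpy 2.4.6 and pandas 2.3.3, and the calculation was tested on simulated data. A gene was called at 2-fold, with no test, as each group has 1 library. The members and the 55 gene lists were chosen with earlier results of these data known. Lists with at least 5 tested members were described. Named by rule were the 15 highest and 15 lowest protein-coding genes of at least 20 TPM, the 6 highest and lowest of at least 200 TPM, up to 3 at each end of a list, 5 at each end of the other genes, 4 at each end between the inhibitor labels, PRMT1 and CARM1. Other genes were chosen after their values were seen: members of the lists, the host genes, the genes with the stress element and CA8.
Some members that the rule names are not reported here.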

Additional observations from a re-analysis of the deposited data

Results flagged for a closer look

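Listed here are the gene lists whose median lay at least 0.1 from 0 on opposite sides in footprints and in input under the PRMT1 inhibitor label, and the genes named by rule that did so at 2-fold, each relative to the DMSO library of its kind. There was 1 library per group, and the difference was not tested. The integrated stress response list had a median ratio of 0.35 in footprints and -0.12 in input, and of 0.45 in the input labelled PRMT4 inhibitor. The mitochondrially encoded messages had medians of 0.17 and -0.32, and of -0.65 in the PRMT4-label input. Cholesterol and fatty acid synthesis genes had medians of 0.10 and -0.10, and of 0.0996 in the PRMT4-label input. HIST2H2BB, a histone pseudogene whose reads may belong to its relatives, stood at 829 TPM in DMSO footprints and 277 TPM in the PRMT1-label footprints (-1.40), and at 54.6 and 199 TPM in the corresponding inputs (2.02), with 334.5 TPM in the PRMT4-label input (2.98).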

How the results depend on the processing

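No paired analysis was possible because each group has 1 library, and for that reason no library could be left out. Of 13 alternatives, 2 were chosen after seeing the data, a mean of at least 5 TPM over the inputs and at least 5 TPM in DMSO footprints. The counts of protein-coding genes at least 2-fold higher and lower, 75 and 19, became 12 and 9 with a pseudocount of 5, 161 and 46 with a mean of at least 1 TPM, 18 and 5 with at least 20 TPM, 130 and 67 with no filter, and 34 and 60 without centring. Centred on ribosomal protein genes, 29 were lower, and with at least 5 TPM in DMSO footprints 49 were higher. For the other genes, 193 higher and 27 lower became 294 and 72 with a mean of at least 1 TPM, 114 and 11 with at least 20 TPM and 357 and 108 with no filter, while the lower count was 16 with a pseudocount of 5 and 43 with at least 5 TPM in DMSO footprints. These settings change the number of genes tested or the shrinkage of low ones, and centring shifts every ratio by 0.18. No list with a median of 0.2 or more in size, and no gene named by rule and called at 2-fold, changed sign under any alternative that could be computed for it. The median of the endoplasmic reticulum chaperones ran from 0.34 to 0.70, that of glycolysis from -0.68 to -0.42 and that of ribosome biogenesis from -0.57 to -0.32. The difference in median between genes with and without a hydrophobic stretch ran from 0.09 to 0.21. The trend on level and the adjustment for GC content and length were computed for protein-coding genes only. The depth is unknown, so the precision of low values cannot be stated.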
